A study of Mus musculus with 6 samples.

Results

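Interferon receptors, the Janus kinases bound to them and the STAT proteins they switch on were followed through their transcripts in mouse alveolar macrophages. The 9 genes were chosen by name, with earlier results of these data known. They are the receptor chains Ifnar1, Ifnar2 and Ifngr1, the kinases Jak1, Jak2 and Tyk2, and the transcription factors Stat2, Stat3 and Stat6. Each has 1 row among the 10539 protein-coding genes of the deposited table, and all 9 passed the filter on low values with 9617 genes in all (a mean of at least 1 FPKM, fragments scaled by transcript length and by library size). The cells came from lungs of C57BL/6 mice, and in every library C/EBPβ, a transcription factor of myeloid cells, was overexpressed. The 3 libraries labelled CEBPβ are from such cells, and the 3 labelled CEBPβ-A are from such cells given adenoviral A20, the ubiquitin-editing enzyme that restrains NF-κB. Which virus the CEBPβ cells received is not stated in the sources used here, nor the time of harvest, the age of the mice, or whether the replicates are separate animals or cultures. The p-values therefore rest on the spread among these libraries alone, and that spread may be technical.

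A type I interferon binds a receptor made of IFNAR1 and IFNAR2, which carry TYK2 and JAK1, and the kinases phosphorylate STAT2, a part of the complex ISGF3 with IRF9, which binds interferon-stimulated response elements (ISRE). Interferon gamma binds IFNGR1 and IFNGR2, which carry JAK1 and JAK2, and the signal reaches gamma-activated sites (GAS). STAT3 answers interleukins 6 and 10, and STAT6 answers interleukins 4 and 13. Alveolar macrophages meet interferons early in viral infection of the lung, and many genes of this chain are themselves interferon-inducible, Stat2 and Irf9 among them.

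Markers of the labelled cell type were present. All 14 alveolar macrophage markers were tested, with Lyz2 at 19554 to 29717 FPKM and Siglecf at 101 to 106 FPKM in the 6 libraries. Their fold changes had a median of 0.11 (log2, −0.26 to 0.52), and 0 passed the limma threshold. Between the groups, 4 of the 14 were separated upward and 2 downward, against 7.89% and 8.86% of all genes tested. Car4 had the highest fold change of the 14 (44.3 to 48.0 FPKM in CEBPβ and 54.1 to 76.1 FPKM in CEBPβ-A). The macrophage marker Adgre1 had the lowest fold change (128 to 132 against 96.1 to 117 FPKM). The part of these markers in the values of the 9 genes was not tested. Tnfaip3, the mouse gene of A20, was not higher in the libraries labelled CEBPβ-A (7.94, 15.5 and 7.32 FPKM in replicates 1, 2 and 3, against 8.76, 17.7 and 19.2 in those labelled CEBPβ), so A20 delivery cannot be read from it and every direction here is between libraries as labelled. CEBPβ-A replicate 3 stood apart, scoring 25.7 on principal component 1 where the other libraries scored −11.7 to −0.0954. Depth is unknown.

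Promoter letters of the 9 genes were searched for both elements. Of the 9 RefSeq promoters (GRCm38.p6, from 250 bases before to 50 after the start), 1 held an ISRE match (GAAA, any 2 bases, then GAAA, on either strand), that of Stat2, and 2 held a GAS match (TTCNNNGAA, the same pattern on both strands), those of Ifnar1 and Ifnar2. Of all 32851 promoters in that table, 3.44% held the ISRE letters and 8.30% the GAS letters. The 3 promoters are shown because they hold these matches, each from the first base of its window. The matched letters are in capitals, and the lines run 5′ to 3′ on the plus strand.
Stat2 promoter, chr10:128270248-128270501, ISRE in capitals: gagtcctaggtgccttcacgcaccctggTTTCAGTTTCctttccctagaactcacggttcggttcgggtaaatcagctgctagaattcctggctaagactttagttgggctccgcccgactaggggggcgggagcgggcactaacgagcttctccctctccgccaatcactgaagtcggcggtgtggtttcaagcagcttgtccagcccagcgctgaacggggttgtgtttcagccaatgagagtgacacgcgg
Ifnar1 promoter, chr16:91484965-91485218, GAS in capitals: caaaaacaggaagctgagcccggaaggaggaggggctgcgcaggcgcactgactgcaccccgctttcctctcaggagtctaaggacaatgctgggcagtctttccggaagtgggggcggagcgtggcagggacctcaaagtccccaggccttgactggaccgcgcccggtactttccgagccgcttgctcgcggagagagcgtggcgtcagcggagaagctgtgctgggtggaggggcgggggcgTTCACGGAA
Ifnar2 promoter, chr16:91372533-91372786, GAS in capitals: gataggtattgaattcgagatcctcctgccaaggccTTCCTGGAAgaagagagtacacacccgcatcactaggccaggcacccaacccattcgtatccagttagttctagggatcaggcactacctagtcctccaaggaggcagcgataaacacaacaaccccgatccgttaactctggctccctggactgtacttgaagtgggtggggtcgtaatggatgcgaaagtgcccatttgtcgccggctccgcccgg
The Stat2 match, TTTCAGTTTC, covers 128270276 to 128270285 and reads as the ISRE on the opposite strand. The Ifnar1 match, TTCACGGAA, lies across the RefSeq start, and the Ifnar2 match, TTCCTGGAA, covers 91372569 to 91372577. A match describes letters and not binding. No match was found in the windows of Ifngr1, Jak1, Jak2, Tyk2, Stat3 and Stat6.

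Of the 9 genes, 8 had a lower mean in the libraries labelled CEBPβ-A, with Ifngr1 the exception, and 0 passed the limma test (adjusted p under 0.05 over all genes, which 0.052% of genes tested passed). Ifnar1, Jak1 and Stat2 were lower in every CEBPβ-A library than in every CEBPβ library. That is 3 of 9, where 8.86% of all genes tested were separated downward and 7.89% upward. All 3 had an unadjusted p under 0.05 in limma, as did 8.18% of genes tested (4.42% on the lower side). The 9 genes were chosen with earlier results of these data known, so these shares do not test them. Leaving out 1 library cannot undo a separation and can only add genes, so these 3 were bound to stay separated. The count was 6 without CEBPβ replicate 2 and 5 without CEBPβ-A replicate 1. No share over all genes was computed for these counts, and the shares above do not apply to them. Without CEBPβ-A replicate 3 the log2 fold changes were −0.20 (SE 0.074) for Ifnar1, −0.13 (SE 0.066) for Jak1 and −0.25 (SE 0.11) for Stat2. Across all genes tested 53.4% had a negative fold change, and the median log2 fold change was −0.013 against −0.11 for the 9 genes. Values are on the log2(FPKM + 1) scale, CEBPβ-A minus CEBPβ. In bulk RNA, fewer cells that express a gene and less RNA per cell cannot be told apart.

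**Figure D1:**
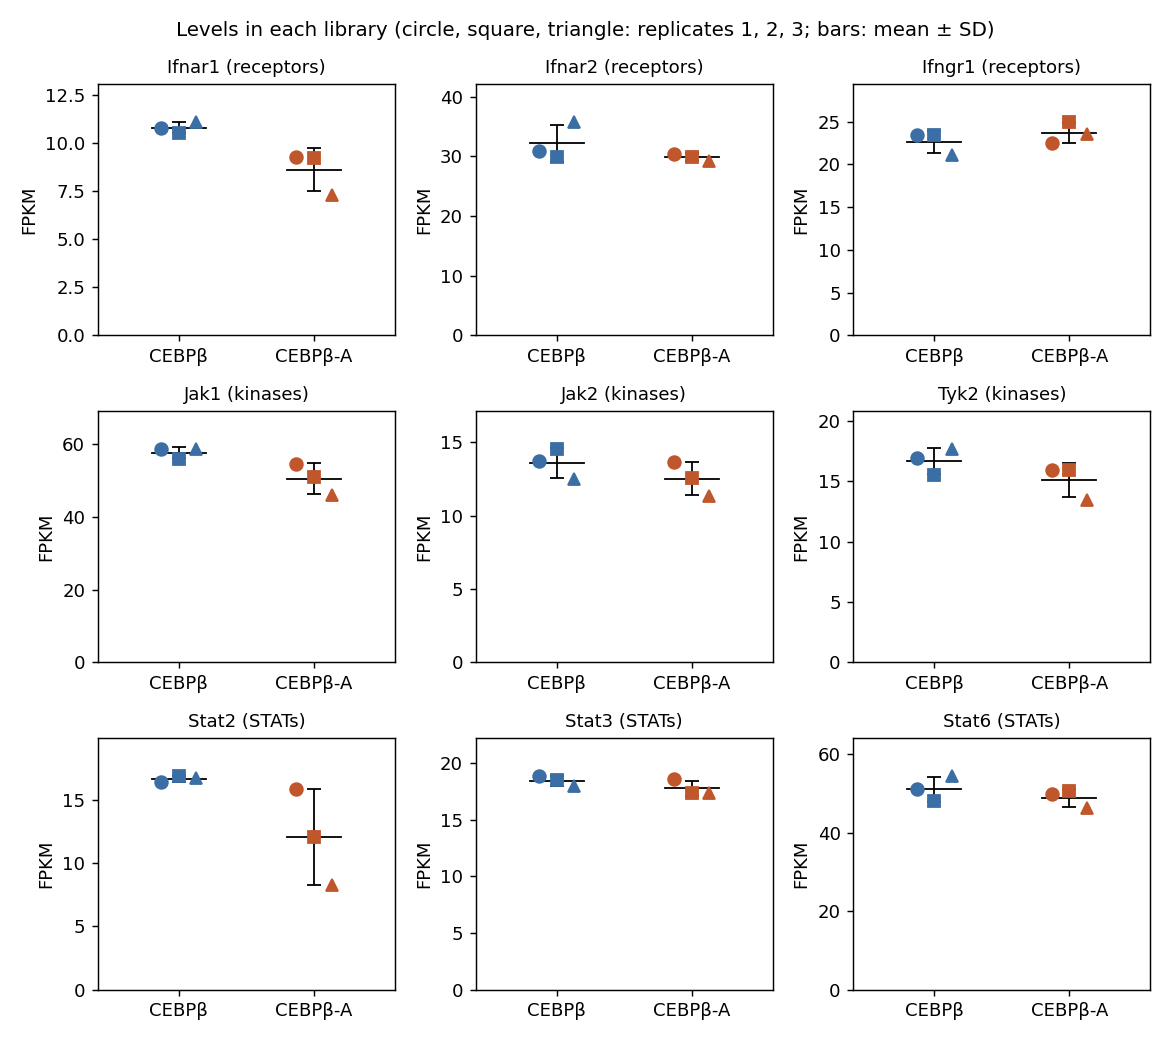
FPKM of the 9 genes in each library (y axis, from 0), with the CEBPβ libraries in blue and the CEBPβ-A libraries in orange, replicates 1 to 3 as circle, square and triangle, and horizontal lines and bars for the mean ± SD of 3 libraries. Ifnar1, Jak1 and Stat2 show no overlap between groups, and the lowest Stat2 value, 8.27 FPKM, is CEBPβ-A replicate 3.

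Among the receptors, Ifnar1 had the lowest fold change. Ifnar1 (ENSMUSG00000022967.12, GRCm38 chromosome 16, 91485238 to 91507441, plus strand), the chain that carries TYK2, stood at 9.29, 9.22 and 7.31 FPKM in CEBPβ-A replicates 1, 2 and 3 and at 10.8, 10.5 and 11.1 FPKM in CEBPβ. The CEBPβ libraries lay close together and all CEBPβ-A libraries lay below them, replicate 3 the furthest. The means were 8.61 ± 1.13 and 10.8 ± 0.277 FPKM (SD, n = 3 each), so the CEBPβ mean was 1.25-fold higher. The log2 fold change was −0.30 (SE 0.10, 95% interval −0.54 to −0.061, limma adjusted p = 0.588), and −0.20 without CEBPβ-A replicate 3.

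Ifnar2 (ENSMUSG00000022971.18, chromosome 16, 91372783 to 91405589, plus strand), the chain that carries JAK1 and binds interferon most tightly, stood at 30.5, 29.9 and 29.2 FPKM in CEBPβ-A and 30.9, 29.9 and 35.8 FPKM in CEBPβ. The groups overlapped, and CEBPβ replicate 3 was the highest library. The log2 fold change was −0.10 (SE 0.085, 95% interval −0.30 to 0.097, adjusted p = 0.674), and −0.025 without CEBPβ replicate 3. Gm21970, an annotated gene on the same strand, shares 13869 bases with the Ifnar2 locus and was listed at 0.462 to 2.25 FPKM. How the authors divided shared reads is not given, so the Ifnar2 level is uncertain to that extent.

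Ifngr1 (ENSMUSG00000020009.12, chromosome 10, 19591949 to 19610229, plus strand), the ligand-binding chain of the interferon gamma receptor, had 22.6, 25.0 and 23.6 FPKM in CEBPβ-A and 23.4, 23.4 and 21.1 FPKM in CEBPβ. There was overlap between the groups, and this was the only positive fold change of the 9 (log2 fold change 0.063, SE 0.079, 95% interval −0.12 to 0.25, adjusted p = 0.771), and it was 0.016 without CEBPβ replicate 3. Its partner Ifngr2, which is not among the 9, stood at 39.7, 42.3 and 44.1 FPKM in CEBPβ-A and 42.4, 40.8 and 44.3 FPKM in CEBPβ (log2 fold change −0.015, 95% interval −0.19 to 0.16, turning to 0.025 without CEBPβ-A replicate 1 and to 0.015 without CEBPβ replicate 3). Neither chain of the interferon gamma receptor was separated between groups.

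Ifnar2, Il10rb, Ifnar1 and Ifngr2 lie in a row on the plus strand of chromosome 16, with 574, 59403 and 39630 bases between neighbours. Il10rb, the shared chain of the interleukin-10 receptor and of interferon lambda receptors, was separated downward (26.1, 26.5 and 26.5 FPKM in CEBPβ-A and 28.3, 27.8 and 31.0 FPKM in CEBPβ). The log2 fold changes along the row were −0.10, −0.13, −0.30 and −0.015, with standard errors of 0.085, 0.072, 0.10 and 0.074, and 0 of the 4 passed limma's test.

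All kinases had negative fold changes, between −0.19 and −0.11. Jak1 (ENSMUSG00000028530.14, chromosome 4, 101152367 to 101265282, minus strand), the kinase shared by type I and type II interferon receptors, stood at 54.5, 51.0 and 46.1 FPKM in CEBPβ-A and 58.6, 55.9 and 58.6 FPKM in CEBPβ. Every CEBPβ-A library was below every CEBPβ library, although CEBPβ-A replicate 1 and CEBPβ replicate 2 were only 54.5 and 55.9 FPKM. The means were 50.5 ± 4.23 and 57.7 ± 1.58 FPKM (SD, n = 3 each), a 1.14-fold higher CEBPβ mean. The log2 fold change was −0.19 (SE 0.081, 95% interval −0.38 to −0.0026, limma adjusted p = 0.588) and −0.13 without CEBPβ-A replicate 3.

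Tyk2 (ENSMUSG00000032175.11, chromosome 9, 21104068 to 21131243, minus strand), the kinase of IFNAR1, stood at 15.9, 15.9 and 13.4 FPKM in CEBPβ-A and 16.9, 15.5 and 17.7 FPKM in CEBPβ. The groups overlapped through CEBPβ replicate 2, and the lowest library was CEBPβ-A replicate 3. The log2 fold change was −0.14 (SE 0.095, 95% interval −0.36 to 0.083, adjusted p = 0.620), and it was −0.061 without CEBPβ-A replicate 3 and −0.060 with the trend on transcript length removed. An annotated antisense gene spans 24326 bases of the Tyk2 locus, and whether the authors counted by strand is not given.

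Jak2 (ENSMUSG00000024789.12, chromosome 19, 29251828 to 29313080, plus strand), which serves IFNGR2 and some receptors of colony-stimulating factors, stood at 13.6, 12.5 and 11.4 FPKM in CEBPβ-A and 13.7, 14.5 and 12.5 FPKM in CEBPβ. The groups overlapped. Its log2 fold change was −0.11 (SE 0.096, 95% interval −0.33 to 0.11, adjusted p = 0.688), and it was −0.046 without CEBPβ-A replicate 3 and −0.022 when the trend of each library on transcript length was removed.

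Stat2 had the lowest fold change of the 9 and differed most among the CEBPβ-A libraries. Stat2 (ENSMUSG00000040033.16, chromosome 10, 128270559 to 128292849, plus strand), the STAT that acts with IRF9 in ISGF3, stood at 15.8, 12.1 and 8.27 FPKM in CEBPβ-A and at 16.4, 16.9 and 16.7 FPKM in CEBPβ. CEBPβ-A replicate 1 lay just under the CEBPβ libraries, replicate 2 further down and replicate 3 lowest. The coefficient of variation was 31.4% in CEBPβ-A and 1.48% in CEBPβ, the widest and the narrowest spread of any of the 9 genes. The means were 12.1 ± 3.79 and 16.7 ± 0.246 FPKM (SD, n = 3 each), a 1.38-fold higher CEBPβ mean. The log2 fold change was −0.48 (SE 0.19, 95% interval −0.93 to −0.028, limma adjusted p = 0.588), at the 1.41st percentile of all genes tested. It was −0.25 without CEBPβ-A replicate 3 and −0.68 without CEBPβ-A replicate 1.

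Stat3 (ENSMUSG00000004040.16, chromosome 11, 100885098 to 100939540, minus strand) was the steadiest of the class over all 6 libraries, with 18.5, 17.4 and 17.4 FPKM in CEBPβ-A and 18.8, 18.5 and 17.9 FPKM in CEBPβ. The groups overlapped. Its log2 fold change was −0.051 (SE 0.071, 95% interval −0.22 to 0.11, adjusted p = 0.801), and it turned to 0.072 when the trend on transcript length was removed. The end of Stat3 overlaps that of Stat5a by 72 bases on the other strand.

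Stat6 (ENSMUSG00000002147.18, chromosome 10, 127642986 to 127660957, plus strand) stood at 49.7, 50.5 and 46.3 FPKM in CEBPβ-A and 51.0, 48.0 and 54.3 FPKM in CEBPβ. The groups overlapped (log2 fold change −0.063, SE 0.077, 95% interval −0.24 to 0.12, adjusted p = 0.765), and the value was −0.019 without CEBPβ replicate 3 and −0.026 without CEBPβ-A replicate 3. Stat6 and Stat2 lie on the same strand of chromosome 10 with 609601 bases between them, and only Stat2 was separated between groups. For Ifnar2, Ifngr1, Jak2, Tyk2, Stat3 and Stat6 the intervals include 0, which does not show that their levels were alike.

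**Figure D2:**
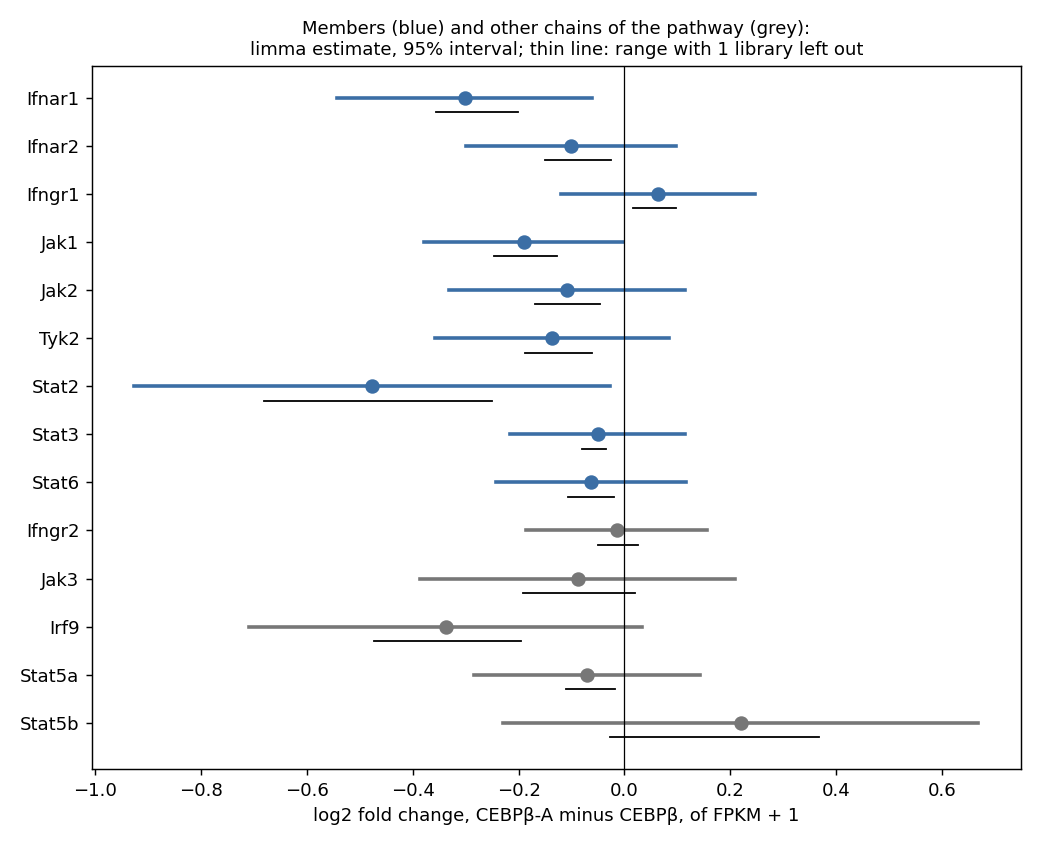
Log2 fold change, CEBPβ-A minus CEBPβ, of log2(FPKM + 1) (x axis) for the 9 genes in blue and 5 further genes of the pathway in grey, with the limma estimate as a point, its 95% interval as a thick line and the range over fits without 1 library as a thin line. The intervals of Ifnar1, Jak1 and Stat2 lie below 0 before adjustment, and Stat2 has the widest range among the 9, from −0.68 to −0.25.

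By class, the median log2 fold change was −0.10 for receptors, −0.14 for kinases and −0.063 for STATs, against −0.013 for all genes tested. The kinase median was −0.061 without CEBPβ-A replicate 3 and −0.060 with the length trend removed, the STAT median −0.035 and −0.034, and the receptor median −0.025 without CEBPβ replicate 3. Measured against the CEBPβ mean, the class medians in CEBPβ-A replicates 1, 2 and 3 were −0.072, −0.099 and −0.13 for receptors, −0.062, −0.10 and −0.29 for kinases, and −0.037, −0.080 and −0.14 for STATs. All 9 of these values were below 0, and the lowest of each class was in CEBPβ-A replicate 3. The median of all genes tested was −0.0029, 0.010 and −0.038 in the same libraries. Fold changes across 9600 genes were lower for longer transcripts (Spearman rho −0.53, and −0.32 without CEBPβ-A replicate 3, genes not being independent replicates). The longest annotated transcripts of the 9 genes had a median of 4397 bases against 3298 for all genes tested. With the length trend removed, the log2 fold changes were −0.27 (SE 0.086) for Ifnar1, −0.11 (SE 0.063) for Jak1 and −0.42 (SE 0.17) for Stat2.

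**Figure D3:**
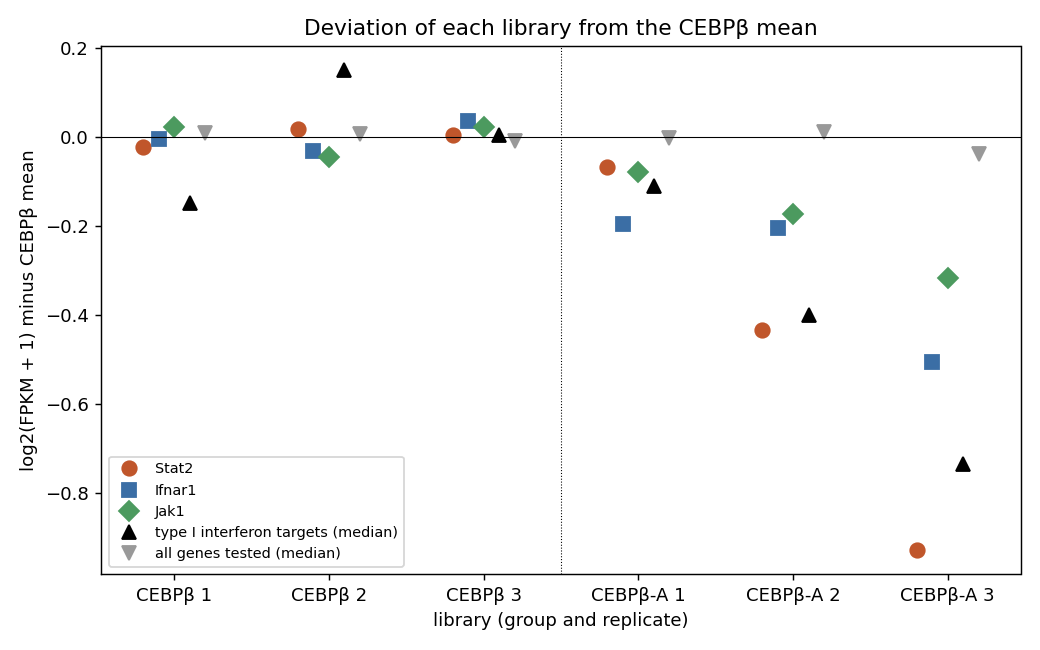
Log2(FPKM + 1) minus the CEBPβ mean (y axis) in each library (x axis) for Stat2, Ifnar1 and Jak1, with the median of 23 type I interferon target genes and of all genes tested. Stat2 and the target median are at −0.068 and −0.11 in CEBPβ-A replicate 1 and at −0.93 and −0.74 in CEBPβ-A replicate 3, while the median of all genes stays between −0.038 and 0.010.

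FPKM is scaled by length, so levels can be ranked between genes. Jak1 was highest, with a median of 55.2 FPKM over 6 libraries (46.1 to 58.6), followed by Stat6 (50.1), Ifnar2 (30.2), Ifngr1 (23.4), Stat3 (18.2), Stat2 (16.1), Tyk2 (15.9), Jak2 (13.1) and Ifnar1 (9.92). By mean, Tyk2 (15.9 FPKM) ranked above Stat2 (14.4 FPKM). The 6-library ranges overlapped between Jak1 and Stat6, Stat3 and Tyk2, Tyk2 and Stat2, and Stat2 and Jak2, neighbours in the order of means. They did not overlap between Stat6 and Ifnar2, Ifnar2 and Ifngr1, Ifngr1 and Stat3, or Jak2 and Ifnar1. Ifnar1 was the least abundant transcript of the 9 in each library, although its range overlapped that of Stat2. In CEBPβ-A replicate 3 they stood at 7.31 and 8.27 FPKM. Stat3 exceeded Tyk2 in 6 of 6 libraries despite the overlap of ranges.

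Ratios within a library depend little on how that library was scaled, and 7 were tested by exact permutation of the libraries, two-sided, where 3 against 3 cannot give a p below 0.1. The Stat2 to Stat3 ratio of FPKM was 0.854, 0.695 and 0.476 in CEBPβ-A replicates 1, 2 and 3 and 0.871, 0.911 and 0.931 in CEBPβ, without overlap (difference of log2 ratios −0.43, exact p = 0.1, adjusted 0.35 over 7 ratios, and −0.22 without CEBPβ-A replicate 3). The Ifngr1 to Ifnar1 ratio was 2.43, 2.71 and 3.22 in CEBPβ-A and 2.18, 2.22 and 1.90 in CEBPβ, also without overlap (0.37, exact p = 0.1, adjusted 0.35). Within the type I receptor, the Ifnar1 to Ifnar2 ratio was 0.305, 0.309 and 0.250 in CEBPβ-A and 0.348, 0.353 and 0.310 in CEBPβ, and the groups overlapped only on the log2(FPKM + 1) scale of the test (−0.20, exact p = 0.2, adjusted 0.467, and −0.11 without CEBPβ-A replicate 3). The remaining ratios overlapped: Jak1 to Tyk2 (−0.053, exact p = 0.4), Jak1 to Jak2 (−0.082, exact p = 0.4), Stat2 to Irf9 (−0.14, exact p = 0.8) and Stat6 to Stat3 (−0.013, exact p = 0.8). The Stat2 to Irf9 ratio was 1.43 and 1.56 in CEBPβ-A replicates 1 and 2 and 0.794 in replicate 3, and its difference turned to 0.14 without that replicate.

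**Figure D4:**
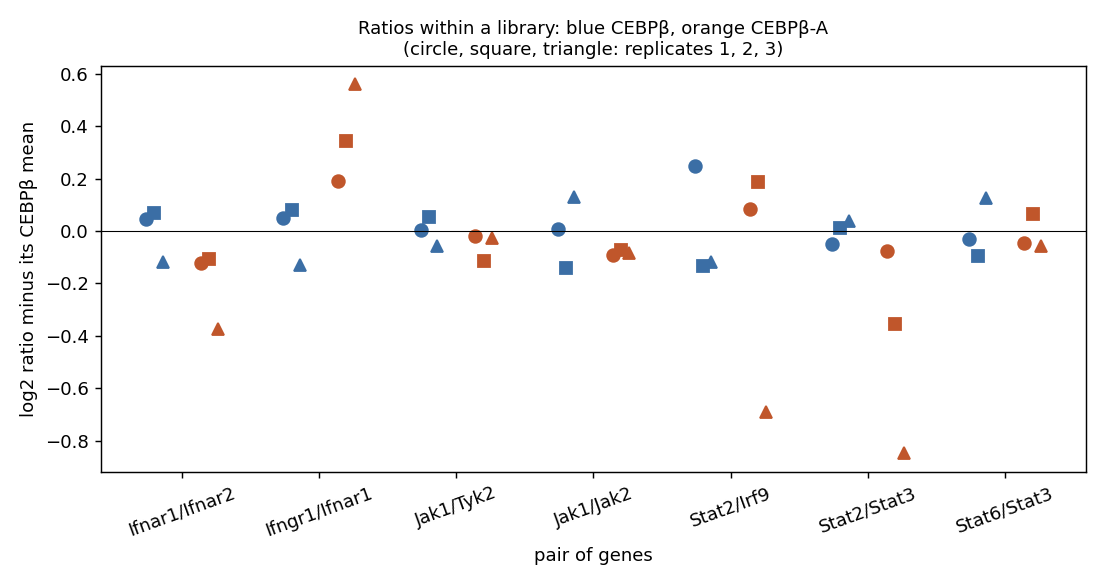
Log2 ratio of 7 gene pairs within each library minus the CEBPβ mean of that pair (y axis), with CEBPβ in blue, CEBPβ-A in orange and replicates 1 to 3 as circle, square and triangle. The groups do not overlap for Ifngr1/Ifnar1 and Stat2/Stat3, and CEBPβ-A replicate 3 is the lowest point of Ifnar1/Ifnar2, Stat2/Irf9 and Stat2/Stat3.

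The remaining chains of the pathway were read from the same fit. Of 8 such genes 6 were tested and 0 passed in either direction. Only 1, a gene other than Irf9 that is not reported here by name, had an unadjusted p under 0.05 in limma, as did 8.18% of all genes tested. Irf9, the DNA-binding partner in ISGF3, stood at 11.1, 7.74 and 10.4 FPKM in CEBPβ-A and 10.1, 13.9 and 13.6 FPKM in CEBPβ, and its lowest library was CEBPβ-A replicate 2 (log2 fold change −0.34, SE 0.16, and −0.20 without that library). Stat5b stood at 15.0 to 16.2 FPKM in 5 libraries and at 8.91 FPKM in CEBPβ replicate 3, and its log2 fold change of 0.22 turned to −0.028 without that library. Without CEBPβ-A replicate 3, the log2 fold change of Stat5a moved from −0.071 to −0.018 and that of Jak3 turned from −0.089 to 0.020.

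Target genes of ISGF3 were below 0 throughout. All 23 of the 25 listed type I interferon targets that were tested had a negative log2 fold change, with a median of −0.43. Of these, 9 were separated downward, 15 had an unadjusted p under 0.05 and 0 passed limma's threshold. Over all genes tested, 53.4% were below 0, 8.86% were separated downward and 4.42% were lower at limma's unadjusted p under 0.05. The list holds Irf9, and its lower level in these libraries was known when it was written, so it is no independent evidence. Its median against the CEBPβ mean was −0.11, −0.40 and −0.74 in CEBPβ-A replicates 1, 2 and 3 and −0.15, 0.15 and 0.0045 in CEBPβ, so the groups overlapped, and the median fold change was −0.26 without CEBPβ-A replicate 3. Oasl2, an antiviral synthetase-like protein, stood at 7.73, 5.74 and 4.23 FPKM in CEBPβ-A and 8.30, 11.3 and 9.58 FPKM in CEBPβ. Irf7, the factor that amplifies interferon production, stood at 36.3, 27.1 and 24.5 FPKM against 37.4, 39.5 and 41.1 FPKM. The log2 fold changes were −0.66 for Oasl2, −0.43 for Irf7, −0.45 for the tethering factor Bst2 and −0.42 for the ubiquitin-like Isg15. Without CEBPβ-A replicate 3 they were −0.47, −0.31, −0.37 and −0.32. The ISRE pattern was held by the promoters of 10 of 18 type I targets with a RefSeq entry and of 8 of 15 interferon gamma targets.

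Interferon gamma targets had a median of −0.29 over 14 tested genes, with 12 below 0, 6 separated downward, 1 upward and 0 past the threshold (6 lower and 1 higher at an unadjusted p under 0.05). Of all genes tested, 8.86% were separated downward, 7.89% upward and 4.42% were lower at limma's unadjusted p under 0.05. This list too was chosen with earlier results of these data known, so the shares do not test it. The guanylate-binding protein gene Gbp7 stood at 3.63, 2.89 and 1.47 FPKM in CEBPβ-A and 4.70, 5.94 and 5.31 FPKM in CEBPβ (log2 fold change −0.83, SE 0.22, and −0.57 without CEBPβ-A replicate 3). Gbp2 was at −0.47, the peptide transporter subunit Tap1 at −0.46 and the immunity-related GTPase Igtp at −0.35. The STAT3 targets had a median of 0.034 over 10 tested genes (6 above 0 and 4 below) and the STAT6 targets −0.043 over 8 (3 above and 5 below), and 0 passed in either list. Fos and Il1rn of the STAT3 list were separated upward, Fos at 20.8, 23.6 and 23.5 FPKM against 17.6, 18.8 and 17.9 FPKM and Il1rn at a log2 fold change of 0.27, while Myc stood at 0.15 (0.052 without CEBPβ replicate 2) and Il4ra at −0.14 (−0.24 without it). In the STAT6 list Irf4 stood at −0.34, Pparg at 0.14, Mrc1 at −0.13 (0.0036 without CEBPβ-A replicate 3) and Chil3 at 0.12.

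Other cytokine receptors that signal through JAKs had a median of −0.14 over 16 tested genes (−0.045 without CEBPβ-A replicate 3, −0.087 without CEBPβ replicate 3 and −0.079 with the length trend removed), 11 below 0 and 5 above, with 5 separated downward, 1 upward and 0 past the threshold (2 lower and 1 higher at an unadjusted p under 0.05). Epor, the erythropoietin receptor, stood at 8.97, 9.98 and 12.5 FPKM in CEBPβ-A and 7.11, 6.55 and 7.03 FPKM in CEBPβ, against the direction of most of the list (log2 fold change 0.53, SE 0.12, limma adjusted p = 0.588). Il10ra, the ligand-binding chain for interleukin 10, was at −0.56, a value that rests in part on 16.9 FPKM in CEBPβ replicate 3, and −0.32 without it, and Il15ra was at −0.32. Inhibitors and phosphatases had a median of −0.070 over 16 tested genes (9 below 0 and 7 above, 0 past the threshold, 2 lower and 1 higher at an unadjusted p under 0.05). For both lists the shares over all genes tested were 8.86% separated downward and 7.89% upward. At limma's unadjusted p under 0.05 the share was 8.18% (4.42% on the lower side). Usp18, an interferon-induced inhibitor that binds IFNAR2, stood at 5.74, 3.55 and 1.92 FPKM in CEBPβ-A and 6.15, 7.50 and 6.43 FPKM in CEBPβ (log2 fold change −0.78, SE 0.27, and −0.47 without CEBPβ-A replicate 3), and it counts among the type I targets too. The phosphatase Ptprc stood at −0.36 and Ptpn11 at −0.20, while Ptpn6, which encodes SHP-1, stood at 84.1, 84.2 and 88.1 FPKM against 80.7, 68.6 and 73.8 FPKM, above every CEBPβ library (log2 fold change 0.20). Socs3, the feedback inhibitor of STAT3 signalling, was listed at 0.482 to 0.869 FPKM, below the filter.

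**Figure D5:**
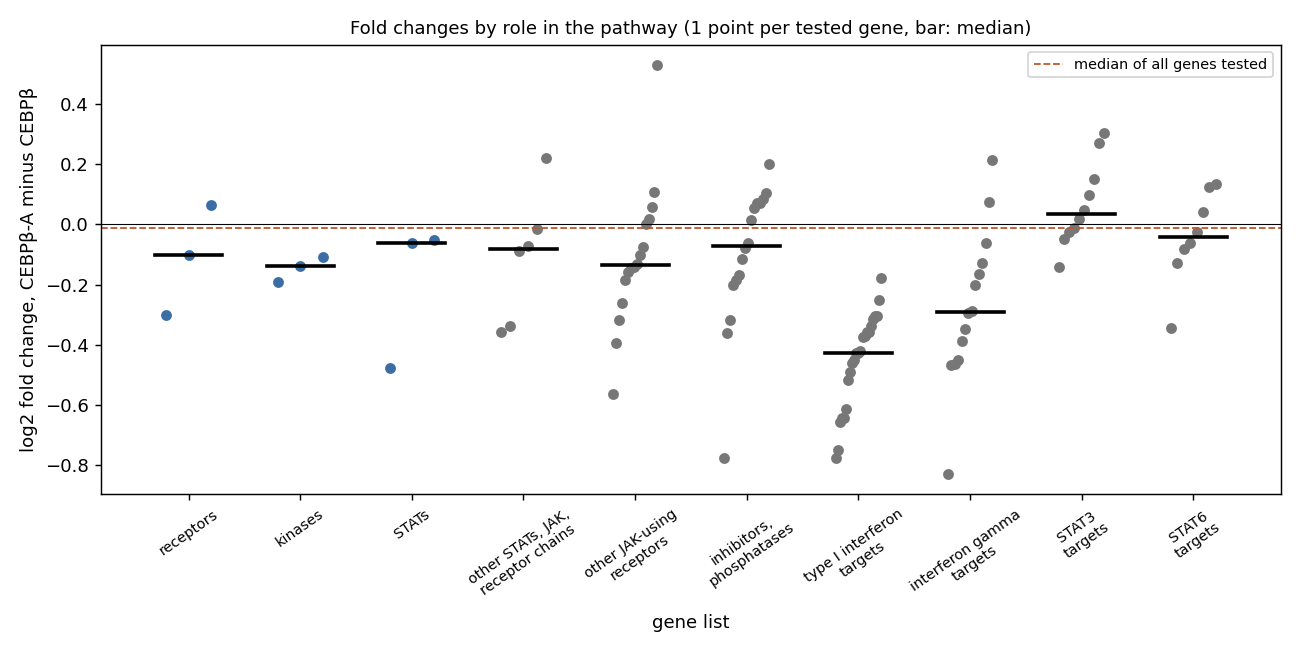
Log2 fold change, CEBPβ-A minus CEBPβ (y axis), of each tested gene in 10 gene lists (x axis), with the 9 genes in blue, other genes of the pathway in grey, a bar for each list's median and a dashed line for the median of all genes tested, −0.013. The type I interferon targets lie below 0 throughout (median −0.43), and the STAT3 targets lie around 0 (median 0.034).

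The genes whose course over the 6 libraries was nearest to the mean course of each class were sought by the root mean square distance of centred log2(FPKM + 1) values. For receptors these were Exoc3 (0.012), Apba1 (0.014) and the integrin chain Itgax (0.015), for kinases Ctnnd1 (0.013), Nsd2 (0.018) and Mfap1b (0.018), and for STATs Rfx5 (0.011), Dock2 (0.012) and Eps15 (0.014). The members themselves lay from 0.029 (Jak1) to 0.20 (Stat2) from their class mean, which includes them. The genes named were picked as the closest of all tested, so their smaller distances say nothing about the members.

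Markers of other cells were given the same reading, and their part in these values was not tested. Of 9 epithelial markers 3 were listed, and their summed level was 29.1 to 39.3 FPKM in CEBPβ and 33.3 to 67.1 FPKM in CEBPβ-A. The highest value was due to the club cell gene Scgb1a1 at 59.4 FPKM in CEBPβ-A replicate 3, beside 5.86 to 6.58 FPKM of Cdh1 in that group. Of 8 neutrophil markers 4 were listed, and their sum was higher in every CEBPβ-A library (348 to 381 FPKM) than in any CEBPβ library (260 to 318 FPKM), a sum carried by S100a8 at 286 to 303 against 199 to 251 FPKM. S100a8 was the only one of the 4 separated, the list median was 0.12 (log2), and the others stood at 0.21 for Mmp8, 0.036 for Cxcr2 and −0.076 for Csf3r. Of 8 markers of interstitial and recruited macrophages 7 were listed, with sums of 191 to 227 FPKM in CEBPβ-A and 163 to 216 FPKM in CEBPβ, carried by Apoe at 184 to 220 and 155 to 207 FPKM. Of the 4 tested markers 2 had a log2 fold change above 0 and 2 below, with Apoe at 0.18, C1qb at −0.20 and C1qa at −0.36, and C1qa was separated downward (1.62 to 2.04 against 2.27 to 2.99 FPKM). Of 7 endothelial and fibroblast markers only Pdgfra was listed, at 0.551 to 1.00 FPKM, and 0 of 9 lymphocyte markers had a row among the genes used here.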

How the data were processed

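RNA sequencing was done on 6 libraries, 3 per group, made with a stranded KAPA kit per the labels' protocols. The authors deposited FPKM values per gene for GRCm38, per the file headers and the submitters' processing notes. The sources used here do not name the aligner, the quantifier or the annotation release, and do not say how strand and shared reads were handled or which genes were listed. FPKM of low genes showed no clear whole-read steps, so depth is unknown and no counting error can be given. Genes with a mean of at least 1 FPKM were fitted with limma 3.58.1 in R 4.3.3 on log2(FPKM + 1), with an intensity trend, no covariate, two-sided p-values and Benjamini-Hochberg adjustment over 9617 genes, threshold 0.05. Means and SDs are of FPKM, and fold changes, SEs and 95% intervals (unadjusted) are limma's. Ratios were compared by exact permutation (scipy 1.17.1). Transcript lengths came from GENCODE M21 (longest transcript) and promoters from RefSeq (GRCm38.p6), matched by symbol for 9 of 9 genes.

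The 9 genes and all gene lists were chosen with earlier results of these data known, and the lists come from textbook knowledge. Named beside the 9 are Tnfaip3 and Cebpb, up to 4 genes per pathway list by smallest p, up to 2 per cell type list by mean level, the partners in ratios and the 3 nearest genes per class. Siglecf, Car4, Adgre1, Cxcr2, Csf3r, C1qa, C1qb, Ifngr2, Jak3, Socs3 and Gm21970 were named after their values were seen. Some genes of the lists are not reported here by name. Cebpb had a log2 fold change of −0.065. Other settings tried were a pseudocount of 0.1 or 0.5, no filter on low values, a minimum of 5 FPKM, upper-quartile, median-of-ratios and quantile scaling, limma without trend or with a robust prior, a replicate block, removal of the length trend and each library left out.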

Additional observations from a re-analysis of the deposited data

How the results depend on the processing

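With 6 libraries and values of unknown depth, small fold changes of these genes cannot be resolved, and 0 of the 9 passed limma's threshold under any of the 17 alternatives (adjusted p from 0.372 to 0.982). The count of members with a negative fold change was 8 in the fit reported and in 16 alternatives and 7 with the length trend removed, where Stat3 turned to 0.072. The number of all genes past the threshold was 5, and it was 0 with a minimum of 5 FPKM (522 of 6114 genes at an unadjusted p under 0.05 in limma), 2 with quantile normalization, 1 with the replicate block, 8 with the length trend removed and 1 to 9 with single libraries left out. The cause was not tested. The count of separated members ranged from 3 to 6 with single libraries left out. Fewer libraries separate more easily, and a separation cannot be lost this way, so the range tests nothing.

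Quantile normalization moved the median of receptors to −0.13 and of STATs to −0.099, and a minimum of 5 FPKM, which leaves fewer genes, moved that of inhibitors to 0.034. With single libraries left out, the medians ranged from −0.15 to −0.025 for receptors, from −0.19 to −0.061 for kinases, from −0.11 to −0.035 for STATs, from −0.16 to −0.045 for other JAK-using receptors, from −0.57 to −0.26 for type I targets, from 0.011 to 0.10 for STAT3 targets and from −0.11 to 0.078 for STAT6 targets. The ratio of Stat2 to Irf9 (log2, difference between groups) ranged from −0.30 to 0.14, turning without CEBPβ-A replicate 3, and that of Stat6 to Stat3 from −0.060 to 0.050, turning to 0.050 without CEBPβ replicate 3, 0.0042 without CEBPβ-A replicate 1 and 0.0094 without CEBPβ-A replicate 3. Scaling moved the median of all genes by under 0.1.

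The replicate numbers do not pair the groups by the labels. Deviations of same-numbered libraries correlated at 0.099, 0.25 and 0.26 for replicates 1, 2 and 3, and each library correlated best with its own number, a hint from the data and not the design. With the replicate block the adjusted p was 0.372 for Ifnar1, Jak1 and Stat2, and it changed no call of the 9 genes.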
